A study of Mus musculus with 36 samples.

Results

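The RNA counts of 10 glycolysis genes (*Hk1*, *Gpi1*, *Pfkl*, *Pfkp*, *Aldoa*, *Gapdh*, *Pgk1*, *Eno1*, *Pkm* and *Ldha*) were followed through brown adipocyte differentiation. The genes were chosen by name, with earlier results of these data known, and found through their GENCODE M21 identifiers. All 10 were present among the 55536 genes listed per library and passed the filter on low counts. RNA sequencing had been done on 36 libraries from mouse brown pre-adipocytes that all lacked their own *Rxra* (*Rxra*-/-, made with CRISPR/Cas9) and carried a retroviral pBabe Hygro construct supplying either *Rxra*WT or *Rxra*SA, in which a serine of RXRα is replaced by alanine. There were 2 such *Rxra*-/- lines, each a single clone from the same clonal wild-type line and numbered 48 and 66 in the labels. Each was harvested at day 0, 2 or 6 with 3 replicates per clone, genotype and day, which gave 12 libraries per day and 6 per genotype and day. Day 0 cells were confluent pre-adipocytes in medium with insulin and triiodothyronine, dexamethasone, isobutylmethylxanthine and indomethacin were added from day 0 to day 2, and day 6 cells had gone on in insulin and triiodothyronine. All groups therefore share the deletion, the viral vector, insulin and triiodothyronine. Clone 48 was sequenced in library pool 1 and clone 66 in library pool 2, so clone and pool cannot be told apart.

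Glycolysis splits glucose into pyruvate in the cytosol, first spending ATP to prepare the sugar and then regaining ATP and NADH from the trioses it is cleaved into. Most steps are catalysed by families of isozymes encoded by separate genes, and cell types differ in the isozymes they use. In adipocytes the pathway supplies pyruvate for fatty acid synthesis and, through dihydroxyacetone phosphate, the glycerol 3-phosphate backbone of triglycerides. Brown adipocytes are known for taking up large amounts of glucose when they are active.

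Total counts ranged from 11351078 to 24349263 with a median of 18338726. *Rxra*, whose counts include the supplied transcript and so do not test the deletion, ranged from 92.6 to 189.7 CPM (counts per 1000000 of the library size scaled by TMM, here and below) in *Rxra*SA and from 104.8 to 233.3 in *Rxra*WT at day 0, and the genotypes also overlapped at day 2 and day 6. The summed level of 5 adipocyte markers (*Adipoq*, *Plin1*, *Fabp4*, *Pparg* and *Cidec*) was 79.2 to 173.2 CPM at day 0, between 2547 and 4973 at day 2 and between 5519 and 9556 at day 6, while 5 pre-adipocyte markers summed to between 254.8 and 465.3, between 33.7 and 103.5 and between 42.0 and 168.1. Of 5 brown adipocyte markers, *Ucp1* and *Prdm16* were at or near 0, with at most 5 and 21 counts in any library, and *Cidea* had at most 27. *Ppargc1a* had 166 to 508 counts, and *Elovl3* at most 4 at day 0, 22 to 206 at day 2 and at most 18 at day 6. The 3 of them that passed the filter, *Cidea*, *Ppargc1a* and *Elovl3*, were higher at day 2 and at day 6 than at day 0, and the 5 summed to 10.5 to 17.7, 19.1 to 42.0 and 11.4 to 32.7 CPM on the 3 days. Among 5 muscle markers *Myod1* had 0 counts in every library and *Myog*, *Ckm* and *Myf5* at most 4, 3 and 2, while *Des* reached 248 to 530 counts at day 6. Of 5 macrophage markers *Adgre1* and *Ptprc* had at most 1 count, *Csf1r* at most 20 and *Lyz2* at most 88, while *Cd68* had 42 to 204, and the 5 summed to 6.56 to 12.7, 2.77 to 5.85 and 5.44 to 11.6 CPM. *Cd68* and *Lyz2* passed the filter and were both lower at day 2 than at day 0, and at day 6 *Cd68* was higher and *Lyz2* lower than at day 0. The 4 endothelial markers together stayed below 1 CPM (highest sum 0.995). Of 3 neural or Schwann markers the summed level was at most 3.66 CPM. The adipocyte, brown adipocyte, pre-adipocyte, macrophage and *Des* levels moved with the day, and their part in the changes between days was not tested. In such bulk samples a change in the number of cells of a type cannot be told apart from a change in RNA per cell.

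The 10 genes together took a larger part of all counts at day 6 than on the earlier days. Their share of all counts was 0.279% ± 0.053 (SD, n = 12) at day 0, 0.353% ± 0.0453 at day 2 and 1.45% ± 0.123 at day 6, with ranges of 0.206% to 0.373%, 0.289% to 0.413% and 1.27% to 1.73%. Days 0 and 2 overlapped and every day 6 library lay above them. The genes did not move together from day 0 to day 2. The mean share of *Aldoa* alone went from 0.0503% to 0.162%, that of *Ldha* from 0.0365% to 0.0374% and that of *Pkm* from 0.1135% to 0.0632%. From day 0 to day 2, 6 of the 10 genes were higher and 2 lower, where 35.8% of the 16723 genes tested were called higher and 37.5% lower (edgeR's quasi-likelihood test, Benjamini-Hochberg adjusted p under 0.05). At day 6 against day 0, 9 were higher and 0 lower, against 32.9% and 35.4% of all genes. At day 6 against day 2 all 10 were higher and 0 lower, against 31.9% and 30.1% of all genes. The median log2 fold change of the 10 genes was 0.39, 2.73 and 2.10 in these comparisons, and that of all genes tested was -0.02, -0.03 and 0.01. With library size in place of TMM, 33.6% of all called genes were higher at day 2 and 34.9% at day 6 against day 0, in place of 48.9% and 48.2%, and 4 of the 10 genes were then lower at day 2. The comparisons with day 0 share the day 0 libraries, and the other pair shares the day 6 or the day 2 libraries with them.

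**Figure D1:**
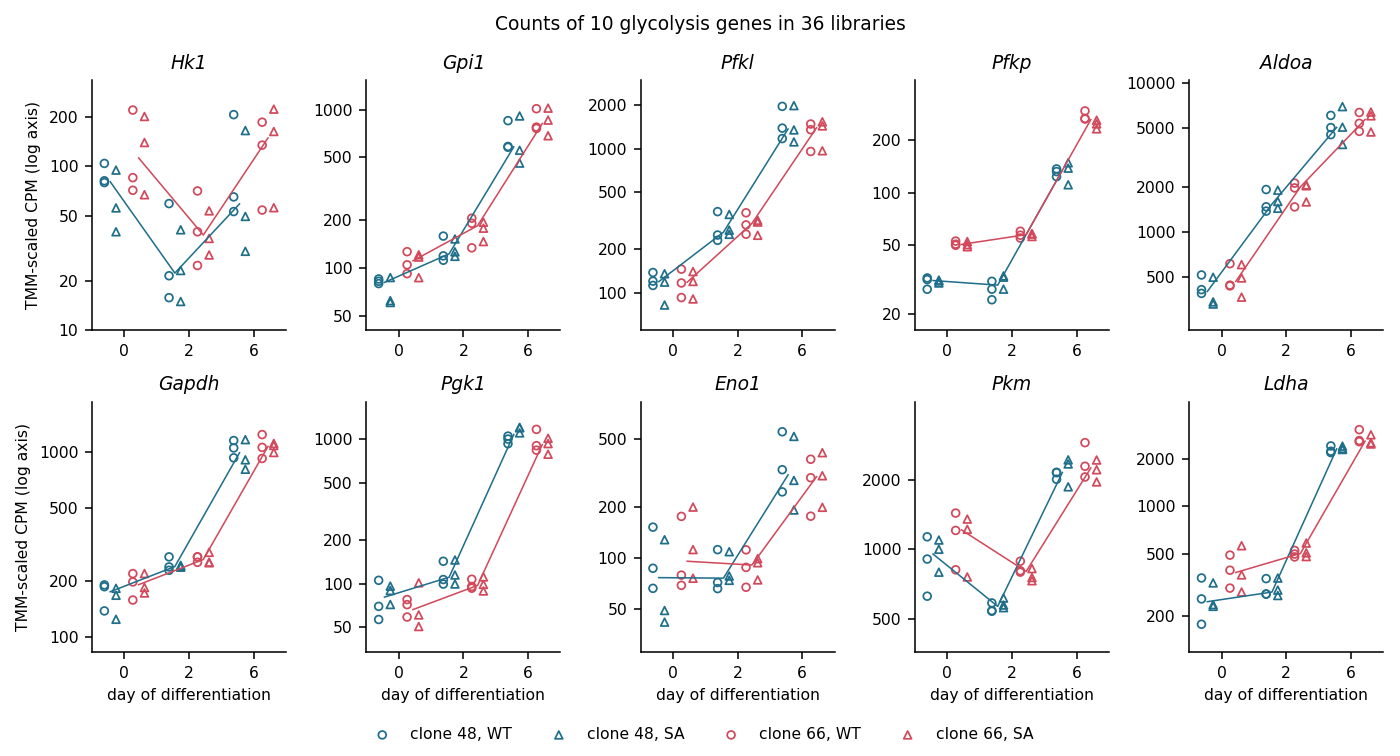
TMM-scaled CPM (log axis, a separate scale for each gene) of each of the 10 glycolysis genes in all 36 libraries by day; circles are *Rxra*WT, triangles *Rxra*SA, colours mark the clones, and lines join the median of the 6 libraries of each clone. The day 6 libraries lie above the day 2 libraries for every gene but *Hk1*, and the clones are apart on every day for *Pfkp*. The share of all genes with such separate ranges is not given here.

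*Hk1* encodes hexokinase 1, which phosphorylates glucose on entry into the pathway (chr10:62268855-62379908, minus strand, GRCm38). At day 0 the libraries held 39.9 to 220.2 CPM with a median of 83.4, those of day 2 held 14.99 to 70.8 (median 32.6) and those of day 6 had 30.3 to 223.0 (median 99.9). It was the gene with the widest spread, and its libraries overlapped between all days. *Hk1* fell by 1.505 ± 0.31 (SE) on the log2 scale from day 0 to day 2 (adjusted p = 5.26e-05) and rose by 1.69 ± 0.31 from day 2 to day 6 (adjusted p = 1.42e-05). At day 6 it differed from day 0 by 0.19 ± 0.30, which did not pass the test (adjusted p = 0.591), so a rise or fall of this size was not detectable at this spread.

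*Gpi1* encodes glucose-6-phosphate isomerase, which turns glucose 6-phosphate into fructose 6-phosphate (chr7:34201330-34230336, minus strand). The day 0 libraries held 60.5 to 126.7 CPM with a median of 86.9, those of day 2 held 111.9 to 206.2 (median 149.6) and those of day 6 had 459.1 to 1020 (median 767.5). Days 0 and 2 overlapped and day 6 stood above both. The log2 fold change was 0.74 ± 0.11 at day 2 (adjusted p = 1.59e-07) and 3.04 ± 0.11 at day 6 (adjusted p = 2.07e-22), both against day 0.

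*Pfkl* and *Pfkp* encode the liver and platelet forms of phosphofructokinase, the committing and most tightly regulated step. *Pfkl* (chr10:77986947-78010083, minus strand) had 81.9 to 145.5 CPM at day 0, with a median of 118.9. Day 2 libraries had 230.8 to 365.1 (median 283.5) and day 6 libraries 955.6 to 1991 (median 1372). None of these ranges overlapped, and the log2 fold change against day 0 was 1.32 ± 0.12 at day 2 (adjusted p = 6.73e-12) and 3.57 ± 0.13 at day 6 (adjusted p = 9.88e-23). *Pfkp* lies at chr13:6579768-6648777 on the minus strand. At day 0 its libraries held 27.9 to 52.7 CPM with a median of 40.6, those of day 2 held 24.3 to 60.01 (median 44.1) and those of day 6 had 111.0 to 294.9 (median 190.6). Days 0 and 2 overlapped throughout, with a log2 fold change of 0.06 ± 0.06 that did not pass the test (adjusted p = 0.389). From day 0 to day 6 it rose by 2.23 ± 0.06 (adjusted p = 1.14e-26). In clone 66 alone the day 2 value was 0.20 ± 0.07 (adjusted p = 0.0172) and in clone 48 alone -0.09 ± 0.09 (adjusted p = 0.446). With library size in place of TMM the day 2 value was -0.20 (adjusted p = 0.0024), on a scale in which the median of all genes moved by -0.26.

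*Aldoa* encodes aldolase A, which cleaves fructose 1,6-bisphosphate (chr7:126795234-126800751, minus strand). Day 0 libraries had 331.6 to 616.7 CPM (median 440.7), day 2 libraries 1384 to 2129 (median 1757) and day 6 libraries 3856 to 6900 (median 5184), with no overlap between days. Its rise of 1.95 ± 0.11 at day 2 (adjusted p = 1.63e-17) was the largest of the 10 genes at that time, and its rise of 1.62 ± 0.11 from day 2 to day 6 (adjusted p = 4.24e-15) was the smallest of the 10. The share of all counts in *Aldoa* went from 0.0503% ± 0.00953 at day 0 to 0.522% ± 0.0781 at day 6 (SD, n = 12). GENCODE M21 gives the symbol to a second identifier, ENSMUSG00000114515.2, which held 32 to 505 counts per library or 0.381% of the counts of ENSMUSG00000030695.16, the one described here.

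The enzymes of the later steps had changed less by day 2 than by day 6, as had all those of the earlier steps but *Hk1*. *Gapdh* encodes the dehydrogenase that makes NADH (chr6:125161715-125166467, minus strand) and is often used as a loading control. The day 0 libraries held 125.2 to 220.8 CPM with a median of 184.7, those of day 2 held 229.8 to 287.1 (median 253.0) and those of day 6 had 803.7 to 1235 (median 1050). The days did not overlap, and *Gapdh* rose 1.42-fold at day 2 (log2 0.51 ± 0.07, adjusted p = 2.41e-07) and 5.75-fold at day 6 (log2 2.52 ± 0.08, adjusted p = 1.04e-24). *Pgk1* encodes phosphoglycerate kinase 1, the first ATP-forming step (chrX:106187100-106203699, plus strand). At day 0 the libraries held 50.6 to 105.6 CPM with a median of 71.8, those of day 2 held 89.2 to 145.9 (median 103.2) and those of day 6 had 784.6 to 1203 (median 1005). It rose by 0.52 ± 0.10 on the log2 scale at day 2 (adjusted p = 3.15e-05) and by 3.73 ± 0.11, or 13.3-fold, at day 6 (adjusted p = 5.06e-25). The day 6 value was the largest fold change against day 0 among the 10 genes, and 3.21 ± 0.11 of it came after day 2 (adjusted p = 7.66e-23).

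*Eno1* encodes alpha-enolase, which makes phosphoenolpyruvate (chr4:150236721-150248879, plus strand). Day 0 libraries had 41.8 to 199.1 CPM (median 83.0), day 2 libraries 65.9 to 111.8 (median 83.0) and day 6 libraries 176.0 to 553.2 (median 300.6). The highest day 0 library exceeded the lowest day 6 library. The day 2 value against day 0 was -0.24 ± 0.22 (adjusted p = 0.333), and *Eno1* rose by 1.67 ± 0.23 at day 6 (adjusted p = 5.68e-08). *Pkm* encodes the muscle-type pyruvate kinase, which forms pyruvate and ATP (chr9:59656368-59679375, plus strand). The day 0 libraries held 627.1 to 1433 CPM with a median of 1048, those of day 2 held 539.9 to 888.0 (median 673.2) and those of day 6 had 1861 to 2887 (median 2177). *Pkm* fell by 0.60 ± 0.10 on the log2 scale at day 2 (adjusted p = 3.55e-06), with overlapping ranges, and stood 1.12 ± 0.10 above day 0 at day 6 (adjusted p = 8.67e-12). The counts do not tell apart the M1 and M2 splice forms of this gene.

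*Ldha* encodes lactate dehydrogenase A, which reduces pyruvate to lactate and restores NAD (chr7:46841475-46855627, plus strand). At day 0 the libraries held 178.1 to 560.7 CPM with a median of 313.8, those of day 2 held 270.9 to 583.1 (median 412.9) and those of day 6 had 2186 to 3055 (median 2443). Day 6 stood clear of the earlier days, which overlapped. The day 2 value was 0.28 ± 0.11 (adjusted p = 0.0208). It passed the test in 42 of 48 settings, with adjusted p from 0.00393 to 0.841, and did not with library size alone, without the clone term, in clone 48 alone, or without replicate 2 at day 0 of clone 48 *Rxra*WT (adjusted p = 0.0523), clone 66 *Rxra*WT (0.0502) or clone 66 *Rxra*SA (0.0523). The rise by 2.94 ± 0.12 at day 6 (adjusted p = 9.80e-22) passed it in each of them.

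**Figure D2:**
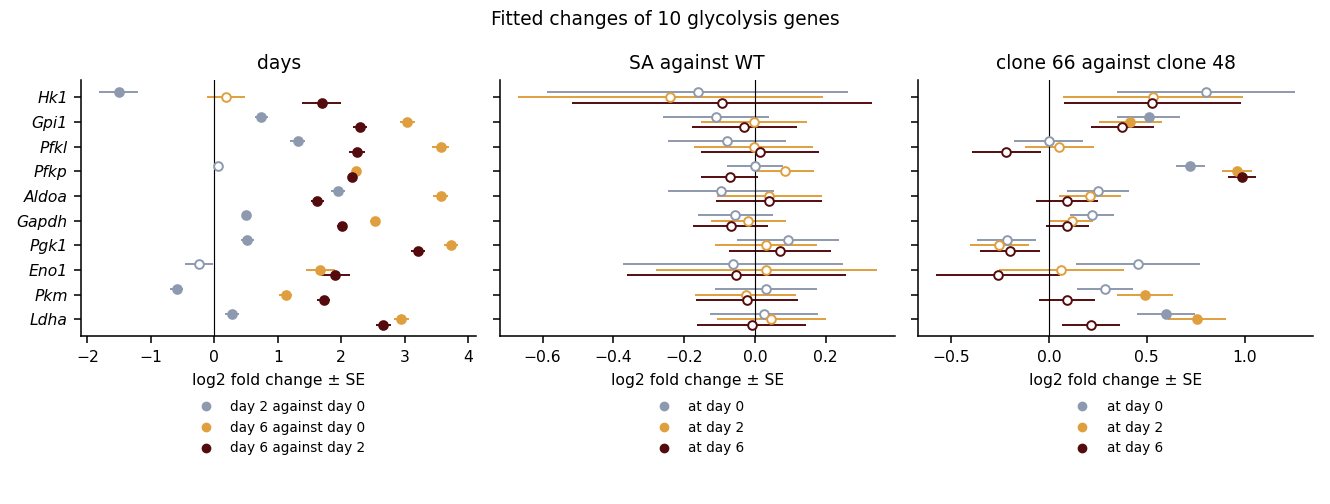
Fitted log2 fold changes with their standard errors for the 10 glycolysis genes between days (left), between *Rxra*SA and *Rxra*WT on each day (middle) and between clones on each day (right); filled points passed the test at an adjusted p under 0.05, and each panel has its own axis. All day 6 values against day 2 lie between 1.62 and 3.21, no *Rxra*SA value is filled, and *Pfkp* is the gene filled on all days between clones.

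The order of the genes was compared on counts per kilobase of exon, given as TMM-scaled CPM per kb. The length was that of all annotated exons of a gene, from 2244 bases for *Pgk1* to 13401 for *Pfkp*. This can exceed the length of the transcripts present, so the order between genes depends on it. At day 0 *Pkm* had the highest median (209.6), followed by *Aldoa* (151.4), *Ldha* (94.8), *Gapdh* (44.7) and *Pgk1* (32.0), and *Pfkp* had the lowest (3.03). *Pkm* exceeded *Aldoa* in 10 of 12 libraries and *Gapdh* exceeded *Pgk1* in 10 of 12, while *Pfkl*, *Eno1* and *Gpi1* were not in a stable order, with *Pfkl* above *Eno1* in 5 of 12 and *Eno1* above *Gpi1* in 7. At day 2 *Aldoa* was first (603.6) and exceeded *Pkm* (134.6) in all 12 libraries. At day 6 the medians were 1781 for *Aldoa*, 738.1 for *Ldha*, 447.7 for *Pgk1*, 435.3 for *Pkm*, 254.2 for *Gapdh*, 205.5 for *Pfkl*, 118.9 for *Gpi1*, 55.9 for *Eno1*, 14.2 for *Pfkp* and 11.7 for *Hk1*. *Pgk1* and *Pkm* did not differ beyond their spread at day 6, with *Pgk1* above in 5 of 12 libraries, nor did *Pfkp* and *Hk1*, with *Pfkp* above in 7 of 12.

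**Figure D3:**
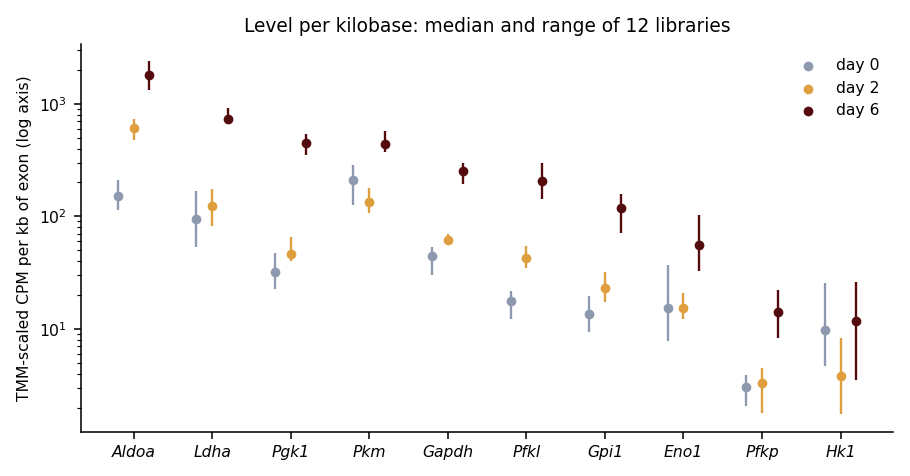
Level of each of the 10 glycolysis genes in TMM-scaled CPM per kb of exon (log axis) at day 0, 2 and 6; points are medians and lines the range of 12 libraries, and genes are ordered by their day 6 median. *Aldoa* is first at day 2 and day 6, and *Pkm* is the highest at day 0.

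Isozyme use shifted by over 10 percentage points in 3 of 5 families, measured as a gene's share of the length-scaled counts of its family. The size of these shares depends on the lengths used, which take in all annotated exons of a gene. *Pfkl* made up 32.6% ± 6.73 (SD, n = 12) of the phosphofructokinase counts at day 0, 59.5% ± 7.85 at day 2 and 79.8% ± 5.93 at day 6, the rest being *Pfkp* and the muscle form *Pfkm*. *Pfkm* had median levels of 116.2, 89.1 and 124.4 CPM on these days and fell by 0.35 ± 0.09 at day 2 (adjusted p = 0.00114). The SD of the *Pfkl* share takes in a gap between clones. At day 2 the share was 64.2% to 68.6% in clone 48 and 50.3% to 54.3% in clone 66. At day 6 it was 83.3% to 86.6% and 70.1% to 77.1%, and at day 0 the clones overlapped. Between *Hk1* and *Hk2*, which encodes the insulin-regulated hexokinase of muscle and fat, *Hk1* held 91.1% ± 4.03 at day 0, 18.5% ± 4.05 at day 2 and 34.7% ± 4.17 at day 6. *Hk2* itself had 1.83 to 15.8 CPM at day 0, 58.6 to 181.0 at day 2 and 46.7 to 269.5 at day 6. Among the enolases *Eno1* held 37.3% ± 10.96, 60.5% ± 6.01 and 80.4% ± 7.02, while *Eno2* fell by 3.01 ± 0.13 and the muscle form *Eno3* by 1.48 ± 0.14 at day 2. In each of these families every pair of days differed, by 16.2 to 72.6 percentage points in size, with adjusted p of 2e-05 or 3e-05 in a two-sided permutation test within clones (15 comparisons, 100000 resamples, smallest possible p 1e-05). *Rxra*WT and *Rxra*SA libraries of the same number deviated together, so these p-values may be too small.

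*Ldha* and *Aldoa* left little room for a shift. *Ldha* held at least 99.14% of its counts with *Ldhb* in every library, and *Aldoa* at least 99.54% with *Aldoc*. Differences between days were at most 0.237 percentage points in size, and that of *Ldha* at day 6 against day 0 did not pass the permutation test (0.0589 points, adjusted p = 0.323). *Ldhb* had 0 to 15 counts per library at day 0 and 13 to 53 at day 6, and *Aldoc* 10 to 21 and 34 to 79, so both minor forms rose at day 6 at low counts (log2 2.51 ± 0.31 and 2.00 ± 0.18).

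**Figure D4:**
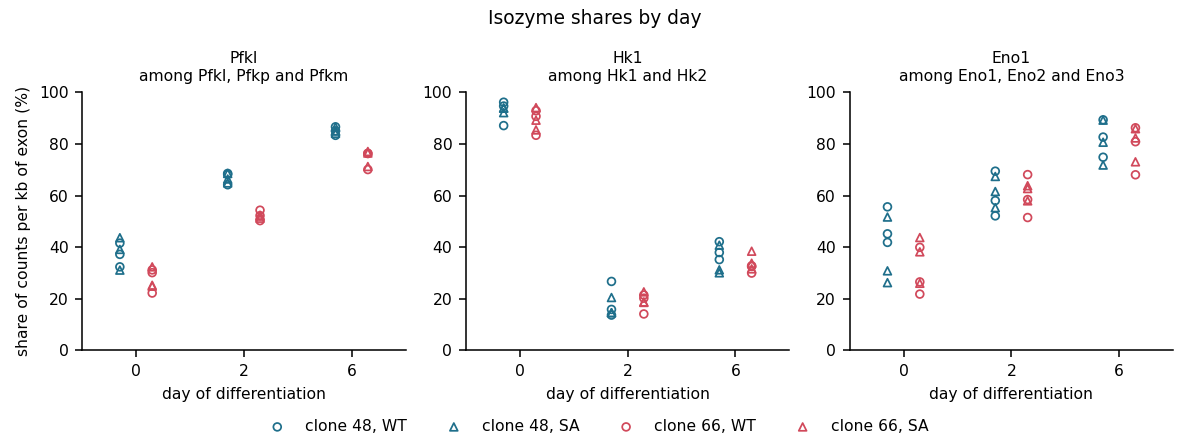
Share (%) of length-scaled counts held by *Pfkl* among the phosphofructokinase genes, *Hk1* among *Hk1* and *Hk2*, and *Eno1* among *Eno1*, *Eno2* and *Eno3*, in each of the 36 libraries by day; colours mark clones, circles *Rxra*WT and triangles *Rxra*SA. The *Pfkl* and *Eno1* shares are highest at day 6 and the *Hk1* share is highest at day 0, at 83.4% or more.

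No difference between *Rxra*SA and *Rxra*WT was detected for any of the 10 genes, the comparison for which the cells were made. None passed edgeR's quasi-likelihood test on day 0, 2 or 6, and 0.0% of the 16723 genes tested did. At an unadjusted p under 0.05 there were 0 of the 10 genes on each day and 139, 162 and 125 of all genes, and DESeq2 called 0 genes as well, with 116, 130 and 101 at an unadjusted p under 0.05. Across the 10 genes the log2 difference ranged from -0.16 to 0.09 at day 0, from -0.24 to 0.08 at day 2 and from -0.09 to 0.07 at day 6, with adjusted p = 1 for each. Standard errors ran from 0.08 for *Pfkp* to 0.43 for *Hk1*. A change in *Hk1* of the size of its own error would not have been seen. With each replicate number of each clone as a block, the *Hk1* errors were 0.244, 0.248 and 0.241 on day 0, 2 and 6. None of the 10 genes passed the test with the block either.

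*Pfkp*, the most precisely measured of them, had 27.9 to 52.7 CPM in *Rxra*WT (median 41.1, n = 6) and 30.3 to 52.4 in *Rxra*SA (median 40.2) at day 0, and 123.6 to 294.9 (median 200.9) and 111.0 to 260.8 (median 190.6) at day 6. *Pgk1* had 837.6 to 1165 CPM in *Rxra*WT (median 962.8) and 784.6 to 1203 in *Rxra*SA (median 1057) at day 6. *Ldha* had 2186 to 3055 (median 2486) and 2286 to 2833 (median 2439). The genotypes overlapped in each of these. No difference between genotypes in the change over time was detected by the interaction test, where 0.0% of all genes were called at day 2 and at day 6 against day 0, 0 of the 10 genes and 144 and 128 of all genes had an unadjusted p under 0.05, and DESeq2 called 0. The difference of the genotype effect between clones gave 0 of 10 calls on each day by edgeR and by DESeq2, none of the 10 at an unadjusted p under 0.05, and 0.0% of all genes (283, 214 and 200 at an unadjusted p under 0.05).

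Between clones, *Pfkp* stood apart on every day. It ranged from 27.9 to 32.4 CPM in clone 48 and from 48.9 to 52.7 in clone 66 at day 0, from 24.3 to 33.2 and from 54.9 to 60.01 at day 2, and from 111.0 to 148.5 and from 232.7 to 294.9 at day 6 (n = 6 each). The clones did not overlap on any day. The log2 difference of clone 66 against clone 48 was 0.72 ± 0.07 (adjusted p = 1.09e-08), 0.96 ± 0.07 (2.96e-11) and 0.99 ± 0.07 (2.30e-11), each from edgeR's quasi-likelihood test. Over 44 settings these values stayed between 0.67 and 0.73, 0.91 and 0.99, and 0.93 and 1.03.

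At day 0, 3 of the 10 genes were higher in clone 66 and 0 lower, where 12.6% of all genes were called higher and 11.1% lower. Besides *Pfkp* these were *Ldha*, with 178.1 to 350.1 CPM in clone 48 and 285.1 to 560.7 in clone 66 (log2 0.60 ± 0.15, adjusted p = 0.00325), and *Gpi1* (log2 0.51 ± 0.16, adjusted p = 0.0194). At day 2 there were 4 higher and 0 lower, against 14.5% and 15.5% of all genes. *Ldha* had 270.9 to 349.6 CPM in clone 48 and 476.1 to 583.1 in clone 66 (log2 0.76 ± 0.15, adjusted p = 0.000236), and *Pkm* had 539.9 to 615.5 and 731.0 to 888.0 (log2 0.49 ± 0.14, adjusted p = 0.00958), both without overlap. *Gpi1* had 111.9 to 158.9 and 134.0 to 206.2 (log2 0.42 ± 0.16, adjusted p = 0.0479) and passed the test in 18 of 44 settings. At day 6 *Pfkp* was the 1 gene higher and 0 were lower, against 13.4% and 12.8% of all genes. On no day was any of the 10 lower in clone 66 at an unadjusted p under 0.05. The *Ldha* difference at day 6 was 0.21 ± 0.15 (adjusted p = 0.317) and that of *Gpi1* 0.38 ± 0.16 (adjusted p = 0.0818). The summed adipocyte markers lay between 3215 and 4973 CPM in clone 48 and between 2547 and 3301 in clone 66 at day 2, and between 6953 and 9556 and between 5519 and 6958 at day 6. The summed brown adipocyte markers lay between 30.7 and 42.0 CPM in clone 48 and between 19.1 and 21.7 in clone 66 at day 2, and between 22.7 and 32.7 and between 11.4 and 25.6 at day 6. *Rxra* itself was lower in clone 66 at day 0 (log2 -0.54 ± 0.16, adjusted p = 0.0117), with -0.11 ± 0.16 at day 2 (adjusted p = 0.663) and -0.36 ± 0.16 at day 6 (adjusted p = 0.096). The part of these markers and of *Rxra* in the clone differences was not tested. Each clone is 1 line, so the tests cover the spread between its libraries only.

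Whether the course over time differed between clones was tested as an interaction. None of the 10 genes passed it, where 3.61% of all genes were called higher and 3.23% lower at day 2 against day 0, and 2.1% and 1.75% at day 6 against day 0. DESeq2 called 0 of the 10 as well, and 1 of them had an unadjusted p under 0.05 at either time, which was *Pfkp* (0.24 ± 0.10, adjusted p = 0.201, and 0.26 ± 0.10, adjusted p = 0.187). With each replicate number of each clone as a block, *Pfkp* passed at day 2 (0.24 ± 0.08, adjusted p = 0.0421) and day 6 (0.27 ± 0.08, adjusted p = 0.0328), and *Eno1* passed at day 6 (-0.70 ± 0.19, adjusted p = 0.0197). The shares of all genes above are from the fit without the block, and those with it are not given here. Between day 2 and day 0 the block raised the genes called from 5989 to 6342 higher and from 6270 to 6638 lower.

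The replicate numbers mattered for the spread of single genes. In the 12 combinations of clone, genotype and day, *Aldoa* and *Eno1* were highest in the library numbered 3 in 12 of 12, *Gpi1* and *Pfkl* in 11 and *Hk1* in 10. *Pfkp*, *Ldha* and *Pgk1* were highest in that number in 3, 4 and 5. The ratio of the highest to the lowest replicate had a median of 3.04 for *Hk1* and 2.21 for *Eno1*, against 1.11 for *Pfkp* and 1.24 for *Ldha*. What the shared number stands for was not tested.

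Across the 36 libraries the 10 genes followed each other to different degrees, given as Pearson's r of TMM log2 CPM, a description over libraries that share days and clones. The 45 pairs ranged from 0.0823 (*Hk1* with *Aldoa*) to 0.981 (*Gpi1* with *Gapdh*), with a median of 0.862. *Hk1* had the lowest median with the other 9 genes, 0.331, and *Eno1* was the gene it followed most closely (0.616). The 6419 well expressed genes (mean log2 CPM 5 or more), less the 10 themselves, were searched for the most alike gene. It was *Pgam1*, the phosphoglycerate mutase of the step between *Pgk1* and *Eno1*, for *Pgk1* (0.992) and *Gapdh* (0.989). It was *Clybl* for *Aldoa* (0.986), *Mif* for *Ldha* (0.979), *Klf15* for *Pfkl* (0.978) and *P4ha1* for *Pfkp* (0.974). *Dram1* was the most alike for *Gpi1* (0.973), *Slc2a1* for *Pkm* (0.961) and *Srebf2* for *Hk1* (0.950). For *Eno1* it was *Eno1b* (0.997), a near-identical copy.

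Near-identical copies and neighbours with overlapping exons can affect the counts of some genes. *Eno1b* is 99.5% identical to *Eno1* transcripts over 1736 bases and held 18.8% to 23.5% of the *Eno1* count in each library at day 0 and 20.01% to 23.3% at day 6. Read pairs could be split between the genes, so the *Eno1* level is uncertain. *Gapdh* had 127 copies of at least 95% identity, which together held 9.55% of its counts, the largest being *3000002C10Rik* with 2539 counts in all libraries. Copies held 2.61% of the *Gpi1* count (*Gm1840*), 0.889% of that of *Ldha* (5 copies), 0.308% for *Pkm* (1 copy), 0.26% for *Pgk1* (4 copies) and 0.0121% for *Aldoa* (*Aldoa-ps4*). None was found for *Hk1*, *Pfkl* and *Pfkp*. These percentages set the counts assigned to copies against those of the gene. They do not measure read pairs that match a gene and its copy equally. *Gm10359*, identical to *Gapdh* over 1002 bases, held 91 counts in all libraries. The levels of the other genes with copies, such as *Gapdh* and *Pgk1*, are therefore uncertain as well. Exons overlap those of *Hk1os* by 157 bases for *Hk1*, *Gm26762* by 741 for *Gpi1*, *Pitrm1* by 748 for *Pfkp*, *Fam57b* by 25 for *Aldoa* and *Iffo1* by 68 for *Gapdh*, all on the other strand, and *Gm49759* by 767 on the same strand for *Pkm*. Counting ignored the strand and left out read pairs of more than 1 gene.

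The other enzymes of glycolysis were counted as a list of their own. Of 20 listed, 13 passed the filter on low counts, and 5 were higher and 4 lower at day 2, 7 higher and 3 lower at day 6 (both against day 0), and 8 higher and 2 lower at day 6 against day 2. Of all genes 35.8% were higher and 37.5% lower at day 2, 32.9% and 35.4% at day 6 (both against day 0), and 31.9% and 30.1% at day 6 against day 2, and these shares stand beside the counts of each list that follows. The median log2 fold change of the 13 was -0.01, 0.47 and 0.44. *Hk2* rose by 4.004 ± 0.29 at day 2 and 4.44 ± 0.29 at day 6, and *Pgam1* by 2.98 ± 0.10 at day 6, most of it after day 2 (2.45 ± 0.10). *Tpi1*, which interconverts the triose phosphates, rose by 1.84 ± 0.10 from day 2 to day 6, as did *Aldoc* (2.30 ± 0.19) and the muscle mutase *Pgam2* (1.37 ± 0.16). *Eno4* fell from 9 to 32 counts per library at day 0 to at most 7 at day 6 (log2 -2.23 ± 0.20) and by 1.63 ± 0.19 at day 2. The *Eno2* value at day 6 was -2.23 ± 0.13. Every value named in the lists of other genes passed edgeR's quasi-likelihood test unless an adjusted p says otherwise.

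Transporters carry glucose in and lactate out at the ends of the pathway. Of 6 genes, 3 were higher and 3 lower at day 2 (median 1.11), 5 higher and 1 lower at day 6 against day 0 (median 2.91), where 32.9% and 35.4% of all genes were, and 4 higher and 2 lower at day 6 against day 2 (median 1.75). *Slc2a4*, the insulin-responsive glucose transporter GLUT4, went from 0.560 to 2.55 CPM at day 0 to between 9.62 and 15.9 at day 2 and between 173.6 and 231.8 at day 6 (log2 2.96 ± 0.11 and 7.004 ± 0.12, and 4.04 ± 0.10 between day 2 and day 6). *Slc2a1*, which encodes the basal transporter GLUT1, had 37.3 to 62.0, 28.7 to 46.2 and 107.4 to 175.7 CPM and rose by 1.92 ± 0.08 from day 2 to day 6. The lactate exporter *Slc16a3* fell by 0.76 ± 0.11 at day 2 and rose by 4.15 ± 0.11 at day 6 against day 0 (4.91 ± 0.11 against day 2), while the related *Slc16a1* rose by 2.64 ± 0.08 and 1.68 ± 0.08 against day 0 and fell by 0.96 ± 0.08 after day 2. *Slc2a3*, which encodes the glucose transporter GLUT3, was the gene lower at day 6 than at day 0 (log2 -1.07 ± 0.13), and it fell by 0.58 ± 0.13 at day 2. *Slc16a7* had 0 counts in all 12 day 0 libraries, 40 counts over 6 libraries at day 2 and 129 over 8 at day 6, which against a floor of 3 counts over the 12 libraries is at least 15.5-fold and at least 46.4-fold higher. At these bounds the list medians were 1.11 and 2.91 as well. From day 2 to day 6 its fitted value was 1.57 ± 0.28.

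Regulators of the fructose bisphosphates and the branches that leave the pathway were counted apart. Of 7 regulators of fructose bisphosphates 5 passed the filter, with 3 higher and 2 lower at day 2 (median 1.16), 3 higher and 1 lower at day 6 against day 0 (median 1.03) and 2 higher and 1 lower at day 6 against day 2 (median -0.08). *Pfkfb3*, whose product makes the phosphofructokinase activator fructose 2,6-bisphosphate, rose by 4.16 ± 0.21 at day 2 and 3.78 ± 0.20 at day 6. *Pfkfb1* rose by 1.16 ± 0.08 and 3.41 ± 0.08 (2.24 ± 0.08 between day 2 and day 6), and *Tigar*, which encodes a phosphatase that opposes them, by 1.47 ± 0.10 and 1.03 ± 0.10, with a fall by 0.45 ± 0.10 after day 2. *Pfkfb4* fell by 1.39 ± 0.08 at day 2 and rose by 1.34 ± 0.08 after it, and *Pfkfb2* was 0.45 ± 0.07 lower at day 6 than at day 0. Of 10 genes of the glycerol 3-phosphate and pentose phosphate branches, 9 were higher at day 2 and 10 at day 6, with 0 lower (medians 1.39 and 1.06), where 35.8% and 32.9% of all genes were higher, and from day 2 to day 6, 3 rose and 5 fell (median -0.25). *Gpd1*, which makes glycerol 3-phosphate, went from at most 2.34 CPM at day 0 to between 395.3 and 587.3 at day 2 and between 810.8 and 1289 at day 6 (log2 7.96 ± 0.12 and 9.13 ± 0.12, and 1.16 ± 0.09 after day 2). In the pentose phosphate branch *Taldo1* rose by 2.80 ± 0.12 and 2.31 ± 0.12, *Rpia* by 1.67 ± 0.10 and 1.40 ± 0.10, *Rpe* by 1.76 ± 0.11 at day 2 and *Tkt* by 1.27 ± 0.07 at day 6. After day 2 *G6pdx*, the entry enzyme of that branch, fell by 0.72 ± 0.09 and *Gpd1l* by 0.73 ± 0.06, and *Gpd2* rose by 0.57 ± 0.08.

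**Figure D5:**
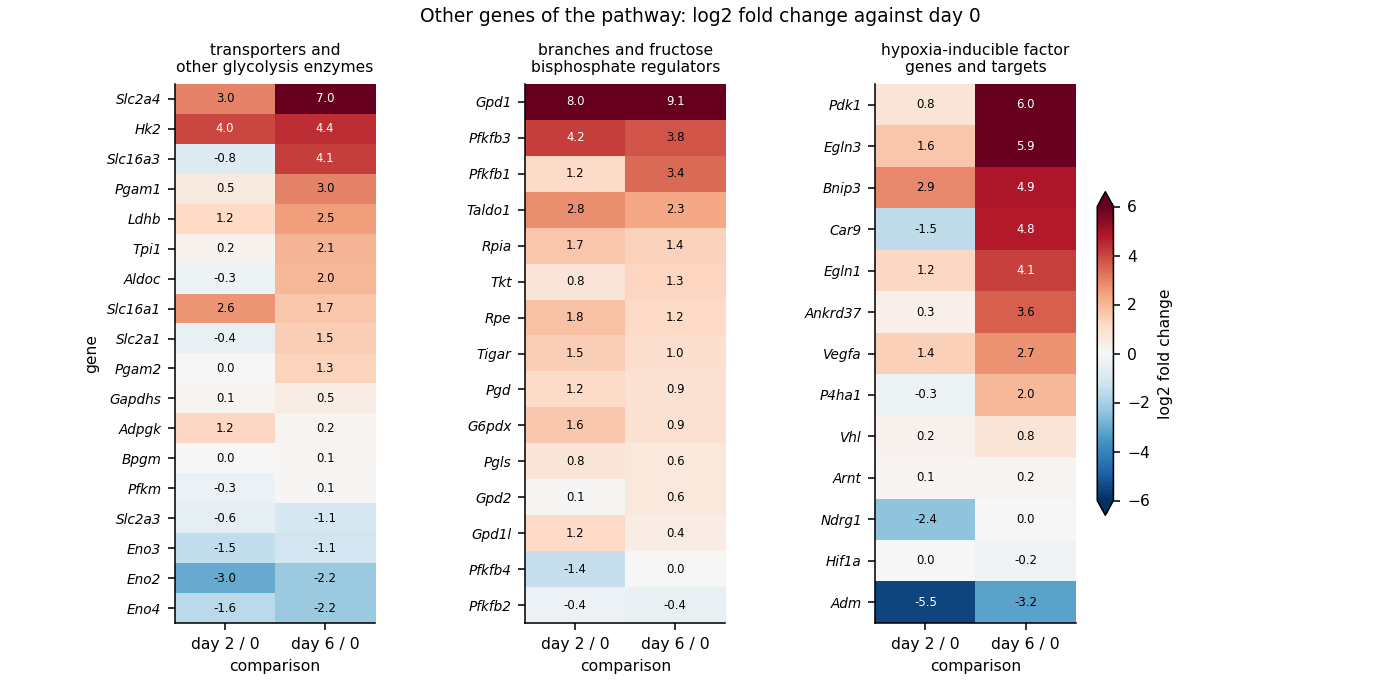
Log2 fold change (number, and colour that saturates at 6 in size) of other pathway genes at day 2 and day 6 against day 0, for transporters and other glycolysis enzymes (left), branches and regulators (middle) and hypoxia-inducible factor genes and targets (right), without *Slc16a7*, which had no counts at day 0. *Gpd1* has the highest value, 9.13 at day 6, and *Adm* the lowest, -5.53 at day 2.

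Hypoxia-inducible factors are transcription factors that induce many glycolysis genes and bind DNA at a core of 5 bases such as ACGTG. Of 14 factor genes and targets 13 passed the filter, with 6 higher and 4 lower at day 2 (median 0.24), 9 higher and 2 lower at day 6 against day 0 (median 2.69) and 11 higher and 1 lower at day 6 against day 2 (median 2.31), where 31.9% and 30.1% of all genes were. *Hif1a* itself was 0.00 ± 0.08 at day 2 (adjusted p = 0.971) and -0.21 ± 0.08 at day 6 (adjusted p = 0.0258), both against day 0. *Pdk1*, which encodes a kinase that closes pyruvate dehydrogenase, rose from 3.57 to 31.6 CPM at day 0 to between 436.5 and 1082 at day 6 (log2 6.04 ± 0.25, and 5.26 ± 0.24 after day 2). *Egln3*, a prolyl hydroxylase gene, rose by 1.65 ± 0.18 at day 2 and 5.91 ± 0.19 at day 6 (4.26 ± 0.17 after day 2), and *Bnip3*, a mitophagy receptor gene, by 2.90 ± 0.12 and 4.86 ± 0.13. Carbonic anhydrase *Car9* had 8 to 17 counts per library at day 0, 1 to 6 at day 2 and 106 to 752 at day 6 (log2 4.78 ± 0.28 against day 0 and 6.31 ± 0.32 against day 2), and *Ankrd37* rose by 3.28 ± 0.13 after day 2. *Adm* fell by 5.53 ± 0.24 and *Ndrg1* by 2.39 ± 0.20 at day 2, so the list did not move as one. The oxygen level of the cultures is not given in the sources used here.

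ACGTG was searched, and other forms of the core such as GCGTG were not. Both strands of the 250 bases before each RefSeq start of the 10 genes were used (GRCm38.p6, 17 windows). All genes were matched by symbol. The reverse complement CACGT counted as a match, and CACGTG therefore as a pair of overlapping matches. *Aldoa*, *Pgk1*, *Pkm* and *Ldha* held a match in 1 window or more, 4 of the 10 genes, against 18.5% of 27025 genes. By window it was 5 of 17, against 16.6% of 32851, and 2 of the 5 (both of *Aldoa*) overlap and share 1 match. Windows with matches are shown with the matches in capitals, 5′ to 3′ on the strand of the gene. The *Pgk1* window (chrX:106186850-106187099, plus strand) held 2 matches and that of *Ldha* (chr7:46845554-46845803, plus strand) 5, a number reached in 0.134% of all windows. The other *Ldha* window held 0. Sequence taken just after the *Ldha* window with 5 matches was not found in a transcript of the gene. For every other window it was found. A window of *Aldoa* (chr7:126799255-126799504, minus strand) held 1, shared with an overlapping window, and a window of *Pkm*, which runs into exons and is not shown, held 1. The *Pgk1* window lies before the GENCODE gene and those of *Ldha* and *Aldoa* lie in introns of it, before inner RefSeq starts.
Pgk1: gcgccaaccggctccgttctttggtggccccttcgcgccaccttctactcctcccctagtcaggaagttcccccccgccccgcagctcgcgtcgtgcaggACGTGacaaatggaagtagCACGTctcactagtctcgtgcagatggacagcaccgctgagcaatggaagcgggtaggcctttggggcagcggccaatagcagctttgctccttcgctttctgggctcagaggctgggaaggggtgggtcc
Ldha: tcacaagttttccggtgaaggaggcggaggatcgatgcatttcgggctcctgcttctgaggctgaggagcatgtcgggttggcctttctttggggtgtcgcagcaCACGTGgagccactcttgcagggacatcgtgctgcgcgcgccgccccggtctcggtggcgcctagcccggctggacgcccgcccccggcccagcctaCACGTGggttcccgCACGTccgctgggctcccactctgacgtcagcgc
Aldoa: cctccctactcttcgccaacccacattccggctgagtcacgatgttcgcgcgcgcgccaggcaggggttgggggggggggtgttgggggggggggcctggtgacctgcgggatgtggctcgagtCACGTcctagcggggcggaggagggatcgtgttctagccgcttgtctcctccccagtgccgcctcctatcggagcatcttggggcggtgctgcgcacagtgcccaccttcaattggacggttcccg
*Pfkl* and *Gpi1*, which rose by 3.57 and 3.04 at day 6, had no match to ACGTG in these windows, while *Pgk1*, with the largest rise, had matches. Whether matches and rises are linked was not tested. A match is not a binding site, and binding was not measured.

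Genes often used as references in expression measurements formed another list. Of 8 such genes 3 were higher and 2 lower at day 2 and 2 higher and 4 lower at day 6, both against day 0 (median log2 fold change 0.15 and -0.31), and 1 was higher and 5 lower at day 6 against day 2 (median -0.53). Of all genes 32.9% were higher and 35.4% lower at day 6 against day 0. Beside the 5.75-fold rise of *Gapdh* at day 6, *Actb* fell by 1.32 ± 0.10 on the log2 scale, *Vcl* by 1.02 ± 0.13, *Ppia* by 0.46 ± 0.09 and *Tbp* by 0.27 ± 0.07, and *B2m* rose by 1.27 ± 0.13 and *Hprt* by 1.07 ± 0.08. *Rplp0* (-0.18 ± 0.09, adjusted p = 0.0755) and *Ywhaz* (-0.35 ± 0.16, adjusted p = 0.056) did not pass the test at day 6. At day 2 *Tbp* (-0.13 ± 0.07), *Ppia* (0.02 ± 0.09) and *Vcl* (0.28 ± 0.13) did not.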

How the data were processed

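The data were gene counts from 36 RNA sequencing libraries, deposited by the authors as raw counts of read pairs per gene, without normalization. Stranded total RNA libraries had been aligned to GRCm38 with STAR 2.7.0d and counted on GENCODE M21 exons with featureCounts 1.6.2, without use of the strand. Groups came from the sample labels. The deposited description calls replicates technical and the paper independent, so p-values may measure only the spread between libraries. No pair of replicates was a duplicate (chi-square per degree of freedom 12.0 to 188.1 over 36 pairs).

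Counts were filtered with filterByExpr of edgeR 4.0.16 (16723 genes), scaled by TMM and tested by the quasi-likelihood method of edgeR (its legacy form), whose model held every combination of genotype and day plus the clone. Clone contrasts had a term for each clone, genotype and day. Benjamini-Hochberg adjustment was over all genes tested. CPM are counts per 1000000 of the TMM-scaled library size. Same-numbered *Rxra*WT and *Rxra*SA libraries deviated together (18 pairs, r from 0.176 to 0.930 over 9381 genes), so the numbers pair the libraries.

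Alternatives were the replicate block, DESeq2 1.42.0, RLE size factors or library size alone in place of TMM, no filter or 1 CPM in at least 6 libraries, edgeR's version 4 form, no clone term, the compared days alone, each clone alone, and each of the 36 libraries left out. Copies were found with BLAST 2.17.0 (at least 95% identity over 200 bases). Fits were run on simulated counts with known fold changes, the same dispersion for every gene and no replicate effect. That run does not check the p-values at the spread of these libraries. R 4.3.3, python 3.11.15, pandas 2.3.3, numpy 2.4.6 and matplotlib 3.10.9 were used. The 10 genes and the lists were chosen with earlier results of these data known. Named were the 10 genes, per list and pair of days up to 4 called genes of largest change, the 8 reference genes reported, and for each of the 10 the gene most alike; other list genes were chosen after their values were seen. Another reference gene of the planned list is not reported here.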

Additional observations from a re-analysis of the deposited data

Results flagged for a closer look

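In 60 sets of the 6 libraries of a genotype and day, 4 libraries stood far from the other 5, and chance flags about 1 in 20 sets. *Hk1* reached 220.2 CPM in replicate 3 of clone 66 among the *Rxra*WT libraries at day 0. *Gapdh* reached 287.1 CPM in replicate 2 of clone 66 among the *Rxra*SA libraries at day 2. *Pgk1* reached 143.0 CPM in replicate 2 of clone 48 among the *Rxra*WT libraries at day 2. *Pkm* reached 2887 CPM in replicate 1 of clone 66 among the *Rxra*WT libraries at day 6. Each was the highest of its set.

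The change over time differed between clones for 2 genes where the replicate number was a block in edgeR's quasi-likelihood test. For *Pfkp* the clone 66 change exceeded that of clone 48 by 0.24 on the log2 scale at day 2 and 0.27 at day 6 against day 0, and for *Eno1* the difference was -0.70 at day 6. Without the block none of these passed the test. The share of all genes that passed this interaction test with the block is not given here.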

How the results depend on the processing

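The counts of called genes among the 10 kept their size within 1.5 times under every alternative, with these exceptions. With library size alone, which moved the all-gene median (log2) by -0.26 at day 2 and -0.19 at day 6 against day 0, 4 genes were lower at day 2 (*Hk1*, *Pkm*, *Pfkp* and *Eno1*), *Pfkp* at -0.20 in place of 0.06. Of all called genes 33.6% were then higher at day 2 and 34.9% at day 6, in place of 48.9% and 48.2%. With the replicate block the interaction of clone and time had 1 gene higher at day 2, and 1 higher and 1 lower at day 6, in place of 0. The share of all genes called in that fit is not given here. The replicate block changed no other call among the comparisons fitted with it. The differences between clones on single days were not fitted with the block. Leaving out each library in turn, the genes higher in clone 66 at day 6 numbered 1 to 2 (*Gpi1* joined without replicate 3 at day 6 of clone 48 *Rxra*WT or *Rxra*SA or replicate 1 at day 6 of clone 66 *Rxra*SA) and the genes lower at day 0 0 to 1 (*Pgk1*, without replicate 3 of clone 66 *Rxra*SA). The *Gpi1* call lapsed in 7 of the 36 at day 0 and in 25 at day 2. The difference in the *Ldha* share between day 2 and day 0 ranged from -0.22 to -0.134 points and lost its call in 2.

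In clone 48 alone and clone 66 alone the *Aldoa* share differed by 0.187 and 0.0782 points at day 2 and 0.17 and 0.0561 at day 6 against day 0, and the *Ldha* share by 0.169 and -0.0515 at day 6 against day 0 and 0.341 and 0.133 at day 6 against day 2. The cause was not tested. Of 7180 values of single genes under the alternatives, 49 changed their call or direction. Counting error limits *Ldhb*, *Aldoc*, *Eno4* and *Slc16a7*, and the spread between replicates limits *Hk1* and *Eno1*.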
